A study of Mus musculus with 6 samples.

Results

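The monocarboxylate transporters MCT1 to MCT4 and their accessory proteins basigin and embigin were followed at the RNA level in the retina of Wfs1 mutant mice. The 6 genes, Slc16a1 (MCT1), Slc16a3 (MCT4), Slc16a7 (MCT2), Slc16a8 (MCT3), Bsg (basigin) and Emb (embigin), were taken by symbol from the count table, where they are 6 of 55376 genes. All 6 passed the filter on low counts.

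RNA-seq was done on whole retinas from 3 WT and 3 Wfs1-KO mice, all at postnatal day 240. The mutants were Wfs1-/-, a germline loss of the gene for wolframin, an endoplasmic reticulum membrane protein. The study's methods describe the allele as a deletion of exon 8. Both genotypes carry the strain label C57x129, while the methods name C57BL/6J, and no treatment is named for either group. Nothing in the labels says from which litters the mice came, so the tests measure the spread between these retinas.

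Lactate, pyruvate and ketone bodies cross cell membranes together with a proton through the MCT proteins, which belong to the larger SLC16 family. MCT1, MCT3 and MCT4 need basigin to leave the endoplasmic reticulum and to stay at the membrane, whereas MCT2 is mostly escorted by embigin. In the retina, photoreceptors turn much of their glucose into lactate, Müller glia and pigment epithelium exchange lactate with them, MCT3 is a marker of the pigment epithelium, and MCT2 is the high-affinity form found in neurons.

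Total counts per retina ranged from 17916885 in WT replicate 3 to 101334381 in Wfs1-KO replicate 1, and 3 counts, taken as the detection floor, equal 0.0291 to 0.170 CPM, which covers counting error only. CPM are counts over library size after TMM scaling. Wfs1 itself had 64.9, 61.4 and 69.9 CPM in WT and 9.63, 0.900 and 11.5 CPM in Wfs1-KO replicates 1 to 3. Even so, its log2 fold change of -3.15 (SE 0.77) did not pass the threshold of an adjusted p under 0.05 on all 6 retinas (p adjusted by Benjamini and Hochberg's method, BH-adjusted p = 0.979 in edgeR's quasi-likelihood test), and it passed at -2.64 (SE 0.16, BH-adjusted p = 2.84e-05) without Wfs1-KO replicate 2, so a gene that misses the threshold here is not shown to be equal in the genotypes. The library of Wfs1-KO replicate 2 stood apart from the other 5. Its mean Pearson correlation with them across genes was 0.918, against 0.962 to 0.971 for each of the others. It held 406 CPM of 13 summed pigment epithelium markers, where the other 5 retinas held 42.0 to 130 CPM, and Ttr and Dct made up 327 CPM of it. Its 5 red blood cell markers summed to 480 CPM against 12.3 to 41.2 CPM, and its 13 microglia and leukocyte markers to 370 CPM against 57.5 to 83.9 CPM. WT replicate 3 was the only retina with counts of the Y-linked Ddx3y above 2 (1137 counts) and had 4 counts of Xist. The tests of the 6 genes are therefore given with and without Wfs1-KO replicate 2.

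Of the 4 transporters, Slc16a1 and Slc16a3 had the highest levels per length, and Slc16a8 is the form known from the pigment epithelium. Their promoters, the 250 bases before the RefSeq transcription start in GRCm38.p6, are printed here to set their upstream sequences side by side. The windows are chr3:104638414-104638663 on the plus strand for Slc16a1, chr11:120948817-120949066 on the plus strand for Slc16a3 and chr15:79254749-79254998 on the minus strand for Slc16a8. The RefSeq starts are not those of the gene positions given below. By those positions, the Slc16a3 window lies inside its gene and the Slc16a8 window overlaps the first bases of its gene. The Emb window, described below without its sequence, also lies inside its gene. Capitals mark CACGTG, the canonical E-box, in Slc16a1 and ACGTG, the core of hypoxia response elements, in Slc16a3.
Slc16a1: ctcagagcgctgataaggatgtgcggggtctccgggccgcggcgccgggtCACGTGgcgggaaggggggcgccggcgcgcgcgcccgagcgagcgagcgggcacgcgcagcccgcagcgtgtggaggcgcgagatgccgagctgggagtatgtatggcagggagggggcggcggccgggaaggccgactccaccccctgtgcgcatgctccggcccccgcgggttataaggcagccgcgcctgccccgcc
Slc16a3: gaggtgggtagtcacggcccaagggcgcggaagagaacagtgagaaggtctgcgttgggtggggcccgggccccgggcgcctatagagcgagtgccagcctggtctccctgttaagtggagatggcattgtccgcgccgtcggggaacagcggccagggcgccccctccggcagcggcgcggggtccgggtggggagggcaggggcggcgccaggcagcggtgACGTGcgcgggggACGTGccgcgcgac
Slc16a8: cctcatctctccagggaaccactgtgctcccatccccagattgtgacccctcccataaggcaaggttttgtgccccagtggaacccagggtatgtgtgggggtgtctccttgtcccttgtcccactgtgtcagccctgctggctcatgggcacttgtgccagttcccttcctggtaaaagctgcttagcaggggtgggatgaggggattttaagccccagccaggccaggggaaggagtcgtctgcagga
The Slc16a1 window held 1 CACGTG, which reads the same on both strands and contains ACGTG. The Slc16a3 window held 2 ACGTG on the forward strand. Neither the Slc16a8 nor the Emb window held either word. Among 32851 promoter windows of the same length, 16.6% held ACGTG on 1 strand or the other and 6.02% held CACGTG. The GC content was 76.4% for Slc16a1, 73.6% for Slc16a3, 58.8% for Slc16a8 and 54.8% for Emb, against a median of 52.4%. These matches describe letters only.

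Per length of exon, basigin mRNA was the most abundant of the 6 and MCT1 the most abundant transporter. Levels between genes are given as RPKM, the CPM per kilobase of exon. Bsg had 506 ± 71.5 RPKM (SD, n = 3) in WT retinas, rank 52 of 18547 tested genes. Slc16a1 followed with 66.3 ± 6.76 RPKM (SD, n = 3), rank 810. Slc16a3 had 22.2 ± 3.79 RPKM and rank 3027, and Emb had 9.91 ± 0.912 RPKM and rank 6133 (SD, n = 3 each). Slc16a8 had 3.57 ± 0.895 RPKM with rank 10014, and Slc16a7 had 0.989 ± 0.252 RPKM with rank 13269 (SD, n = 3 each). The order was the same in 5 of the 6 retinas. In Wfs1-KO replicate 2 Slc16a8 stood above Emb. Over all 6 retinas the ranges of neighbours in this order did not meet except for that pair, with 8.25 to 10.8 RPKM for Emb and 2.85 to 11.98 RPKM for Slc16a8. These levels are a description of the tissue as a whole, in which fewer cells of a type and less RNA per cell cannot be told apart.

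Slc16a1 made up most of the summed RPKM of the 4 transporters in each retina. Its share was 66.7%, 74.9% and 71.8% in WT and 66.1%, 59.0% and 74.1% in Wfs1-KO replicates 1 to 3. The share of Slc16a3 lay between 20.1% and 29.0%, and that of Slc16a7 between 0.687% and 1.71%. Slc16a8 had 2.95% to 5.15% in 5 retinas and 12.1% in Wfs1-KO replicate 2. For each unit of summed transporter RPKM there were 4.49 to 6.38 units of Bsg in WT and 5.72 to 7.53 in Wfs1-KO retinas, and these ranges overlapped.

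**Figure D1:**
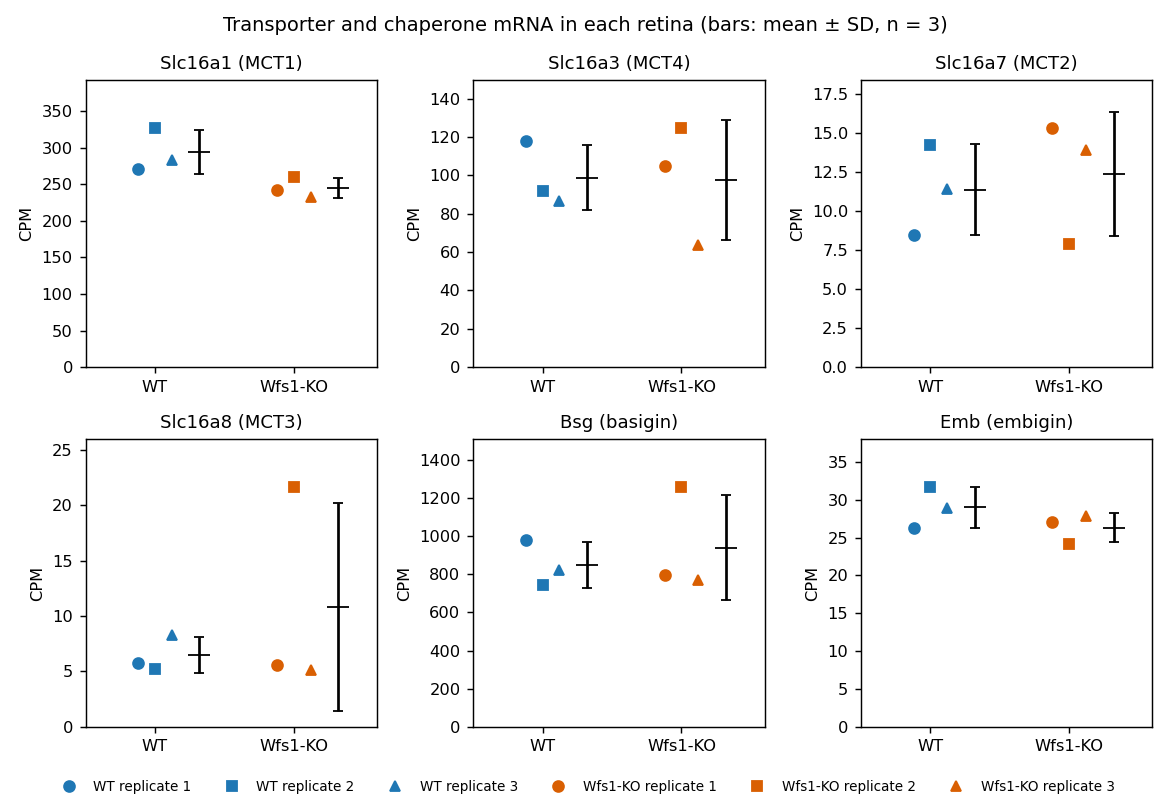
CPM of the 6 genes in each retina (vertical axes start at 0), with 1 point per retina and bars for the mean ± SD (n = 3). All 3 Slc16a1 points of Wfs1-KO lie below the 3 WT points, and for the other 5 genes the groups overlap. Wfs1-KO replicate 2 is the highest retina for Slc16a3, Slc16a8 and Bsg and the lowest for Slc16a7 and Emb.

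The first question was whether RNA of the transporters differed between genotypes, since MCT1 and basigin are proteins that the study followed in these mutants. None of the 6 genes passed the threshold, an adjusted p under 0.05, in edgeR's quasi-likelihood test, with p-values adjusted over 18547 genes. By the same fit 0.0108% of all genes passed. At an unadjusted p under 0.05 the count was 0 of 6 with edgeR, where 2.81% of all genes lay. It was also 0 of 6 with DESeq2 and with limma-voom, where 746 and 400 of the 18547 genes lay. Their groups did not overlap in CPM for 1 of the 6 genes, and for 8.96% of all genes. The median log2 fold change of the 6 was 0.053, against 0.023 for all genes tested. Leaving out Wfs1-KO replicate 2, 0 of 6 passed, with 0.125% of 19178 genes past the threshold. In that fit Slc16a1 alone had an unadjusted p under 0.05, a share of 5.19% among all genes, and 1 of the 6 had groups that did not overlap, against 22.4% of all genes. The median of the 6 was then -0.18, against -0.0004 for all genes.

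Slc16a1, on chromosome 3 from 104638668 to 104658462 (ENSMUSG00000032902.1, mm10, plus strand, 5 exons), encodes the widely expressed transporter MCT1. It had 270, 327 and 283 CPM in WT replicates 1 to 3 and 242, 260 and 232 CPM in Wfs1-KO replicates 1 to 3, from 4990 to 24889 counts. All values of the mutants were under those of the WT, and WT replicate 1 and Wfs1-KO replicate 2 were the closest pair. The log2 fold change was -0.26 (standard error, SE, 0.16, 95% interval -0.65 to 0.12, BH-adjusted p = 0.979 in edgeR's quasi-likelihood test). On the linear scale this was 0.833 of the WT level, with an interval of 0.638 to 1.09. It was -0.31 without Wfs1-KO replicate 2 (SE 0.13, 95% interval -0.61 to -0.02, unadjusted p = 0.0391, BH-adjusted p = 0.903 in edgeR). A mutant level below 0.638 of the WT level thus lay outside the interval of the 6 retinas.

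The summed level of 15 photoreceptor markers was also lower in every mutant retina, with 76839 to 85625 CPM in WT and 63033 to 76122 CPM in Wfs1-KO retinas. Of the 15 markers, 0 passed the adjusted threshold with edgeR, DESeq2 or limma-voom, against 2, 52 and 2 of all 18547 genes. With edgeR, 0 of the 15 had an unadjusted p under 0.05 (2.81% of all genes). Of the 15, 4 were lower in every mutant retina (8.96% of all genes had groups that did not overlap). Without Wfs1-KO replicate 2, 0 of 15 passed with edgeR (0.125% of all genes). In that fit 4 (Arr3, Cnga1, Gnat1 and Nr2e3, all lower) had an unadjusted p under 0.05 (5.19% of all genes). Of the 15, 10 were lower in both remaining mutant retinas (22.4% of all genes had groups that did not overlap). Slc16a1 per 1000 CPM of these markers was 3.17, 4.26 and 3.31 in WT and 3.17, 4.12 and 3.05 in Wfs1-KO replicates 1 to 3, values that overlapped. The 10 Müller glia markers summed to 6679, 6075 and 6480 CPM in WT replicates 1 to 3. In Wfs1-KO replicates 1 to 3 the sums were 5531, 8058 and 5868 CPM. Apoe had 3627 CPM in Wfs1-KO replicate 2 and 617 to 972 CPM in the other retinas. Of the 10 markers, 4 were at their highest in Wfs1-KO replicate 2 and 6 were below their WT mean there. The 10 endothelial markers summed to 274 to 360 CPM in WT and 359 to 383 CPM in Wfs1-KO retinas. Of the Müller glia markers 1 (Glul, lower) had an unadjusted p under 0.05 with edgeR, and of the endothelial markers 0 did, against 2.81% of all genes. Leaving out Wfs1-KO replicate 2, these counts were again 1 (Glul) and 0, against 5.19% of all genes. No photoreceptor, Müller glia or endothelial marker was at 0 in any retina. Their part in the Slc16a1 values was not tested.

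Slc16a3, on chromosome 11 from 120948480 to 120960868 (ENSMUSG00000025161.16, plus strand), encodes MCT4, the low-affinity transporter by which glycolytic cells export lactate. It had 118, 91.6 and 86.7 CPM in WT and 105, 125 and 63.4 CPM in Wfs1-KO replicates 1 to 3. The mutant retinas held both the highest and the lowest value. The log2 fold change was -0.02 (SE 0.27, 95% interval -0.66 to 0.63, BH-adjusted p = 0.995 in edgeR), and its sign turned with the normalisation, with 0.0058 under upper-quartile scaling. It was -0.24 without Wfs1-KO replicate 2 (SE 0.21, BH-adjusted p = 0.968 in edgeR), 0.13 without WT replicate 1 and 0.21 without Wfs1-KO replicate 3.

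Slc16a7, on chromosome 10 from 125219270 to 125389465 (ENSMUSG00000020102.15, minus strand), encodes MCT2. Its values were 8.46, 14.3 and 11.4 CPM in WT and 15.4, 7.86 and 13.9 CPM in Wfs1-KO replicates 1 to 3, from 201 to 1582 counts. WT replicate 1 and Wfs1-KO replicate 2 were the lowest of the 6. The log2 fold change was 0.12 (SE 0.32, 95% interval -0.62 to 0.86, BH-adjusted p = 0.979 in edgeR). Leaving out Wfs1-KO replicate 2 gave 0.36 (SE 0.22, BH-adjusted p = 0.966), while leaving out Wfs1-KO replicate 1 gave -0.07 and leaving out WT replicate 1 gave -0.06. Of its 11509 exon bases, 179 overlap Gm47862 on the opposite strand.

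Slc16a8, on chromosome 15 from 79251014 to 79254761 (ENSMUSG00000032988.4, minus strand), encodes MCT3 of the pigment epithelium. It had 5.80, 5.25 and 8.29 CPM in WT and 5.59, 21.6 and 5.15 CPM in Wfs1-KO replicates 1 to 3, from 146 to 914 counts. A single retina, Wfs1-KO replicate 2, held more than 2 times the level of any other. The log2 fold change was 0.75 (SE 0.57, 95% interval -0.59 to 2.09, BH-adjusted p = 0.979 in edgeR). Without that retina it was -0.25 (SE 0.23, BH-adjusted p = 0.968), so its direction rested on that one library. The 13 pigment epithelium markers summed to 87.4, 130 and 97.8 CPM in WT and 72.0, 406 and 42.0 CPM in Wfs1-KO replicates 1 to 3. None of the 13 was at 0 in any retina. In Wfs1-KO replicate 2, 8 of the 13 had their highest value of the 6 retinas, with 234 CPM of Ttr and 92.8 CPM of Dct. In the same retina 3 (Lrat, Stra6 and Slc26a7) were below their WT mean. Rpe65 (20.8 CPM, against 21.8 CPM in WT replicate 2) and Best1 (1.14 CPM, against 1.23 CPM in WT replicate 1) were not at their highest there. With edgeR, 0 of the 13 passed the adjusted threshold (0.0108% of all genes) and 1 (Lrat, lower) had an unadjusted p under 0.05 (2.81% of all genes). With that retina left out the counts were 1 (0.125% of all genes) and 8 (5.19% of all genes), all lower. The part of the amount of pigment epithelium in the Slc16a8 values was not tested.

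**Figure D2:**
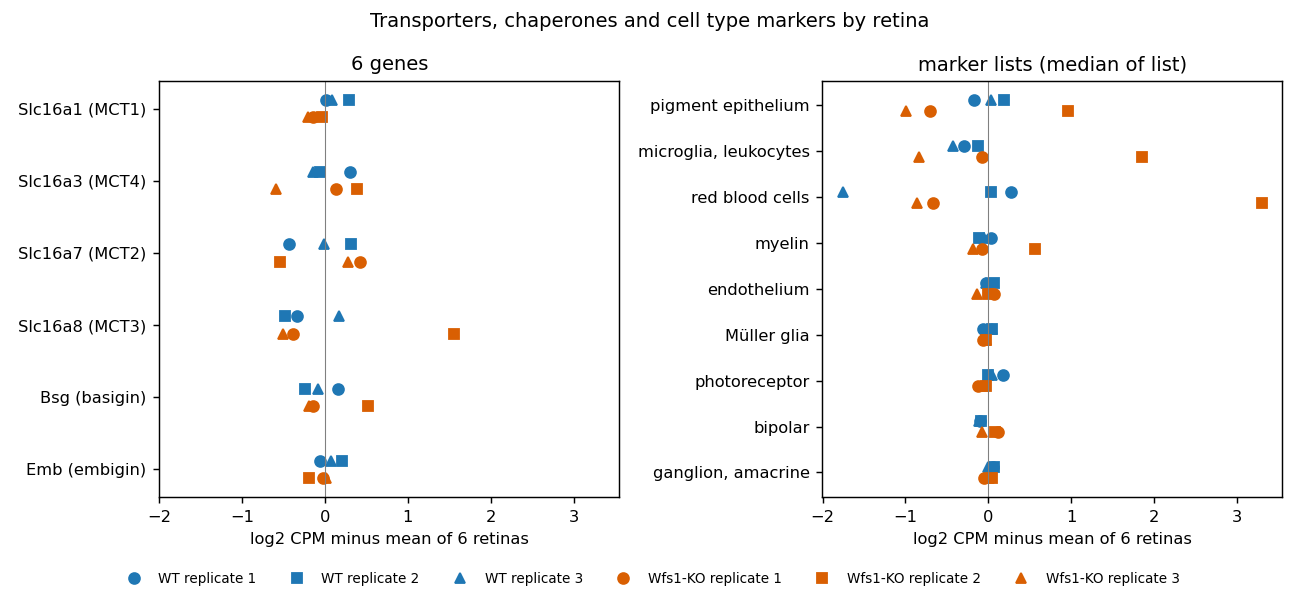
Each point is 1 retina, placed at its log2 CPM minus the mean of the 6 retinas for the 6 genes (left) and for the median marker of 9 cell type lists (right). Wfs1-KO replicate 2 is the highest retina for Slc16a3, Slc16a8 and Bsg and for the pigment epithelium, microglia and leukocyte, red blood cell and myelin lists.

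Of the chaperones, Bsg lies on chromosome 10 from 79704491 to 79711969 (ENSMUSG00000023175.15, plus strand). The gene has 6 annotated transcripts, and gene counts do not separate the longer photoreceptor form of basigin from the form found in other cells. It had 982, 745 and 826 CPM in WT and 795, 1258 and 768 CPM in Wfs1-KO replicates 1 to 3. The groups overlapped, with Wfs1-KO replicate 2 and WT replicate 1 the highest of their groups. The log2 fold change was 0.14 (SE 0.24, 95% interval -0.43 to 0.71, BH-adjusted p = 0.979 in edgeR). Without Wfs1-KO replicate 2 it was -0.13 (SE 0.14, 95% interval -0.44 to 0.18, BH-adjusted p = 0.968). On all 6 retinas the fold was 1.11, with an interval of 0.745 to 1.64. The 5 red blood cell markers, from cells that carry basigin and MCT1 on their surface, summed to 41.2, 28.9 and 12.3 CPM in WT and 22.7, 480 and 20.1 CPM in Wfs1-KO replicates 1 to 3. Their part in the Bsg values was not tested.

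Emb, on chromosome 13 from 117220272 to 117274415 in the count table (ENSMUSG00000021728.8, plus strand), had 26.3, 31.65 and 28.9 CPM in WT and 27.0, 24.1 and 27.8 CPM in Wfs1-KO replicates 1 to 3. It had the narrowest spread relative to its level among WT retinas, a coefficient of variation of 9.21%. The log2 fold change was -0.14 (SE 0.17, 95% interval -0.53 to 0.26, BH-adjusted p = 0.979 in edgeR), and -0.09 (SE 0.14, BH-adjusted p = 0.979) without Wfs1-KO replicate 2. The antisense gene Gm17509 overlaps 686 of its exon bases and had 4 to 32 counts per retina, whereas Emb had 510 to 2784. Whether the counting used strand is not given in the sources used here.

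**Figure D3:**
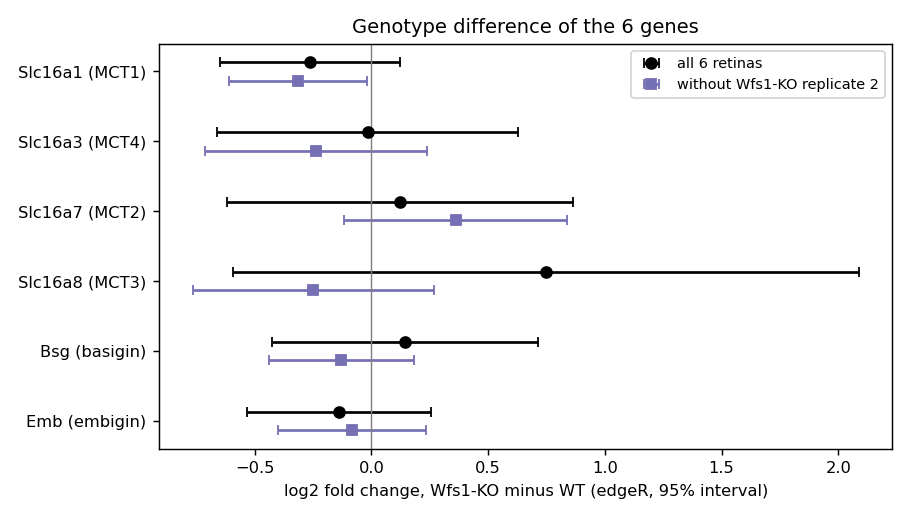
Log2 fold change of the 6 genes, Wfs1-KO minus WT, from edgeR (horizontal axis, bars for the 95% interval) on all 6 retinas (circles) and without Wfs1-KO replicate 2 (squares). On all 6 retinas each interval includes 0. Without that retina the interval of Slc16a1, from -0.61 to -0.02, does not include 0 before adjustment, and the points of Slc16a8 and Bsg lie on the other side of 0.

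The balance between transporters was compared as ratios of RPKM within a retina, which do not depend on library scaling. The log2 ratio of Slc16a7 to Slc16a1, the neuronal over the widely expressed transporter, was -6.38, -5.90 and -6.01 in WT and -5.35, -6.42 and -5.44 in Wfs1-KO replicates 1 to 3. Of the mutant retinas, 2 were above all WT retinas and the other was below them. The difference, Wfs1-KO minus WT, was 0.36 (two-sided exact permutation test, p = 0.4, where 0.1 is the smallest p that 3 against 3 allows). Without Wfs1-KO replicate 2 it was 0.70 and the groups did not overlap (two-sided exact permutation test, p = 0.1, the smallest possible). The log2 ratio of Slc16a1 to Bsg, transporter over chaperone, was -3.26, -2.58 and -2.94 in WT and -3.11, -3.67 and -3.12 in Wfs1-KO replicates 1 to 3. Here the lowest WT retina lay below 2 of the mutant retinas. The difference was -0.38 (two-sided exact permutation test, p = 0.3), and -0.19 without Wfs1-KO replicate 2 (exact permutation test, p = 0.6). Without WT replicate 1 it was -0.54 and the groups did not overlap (exact permutation test, p = 0.1, the smallest possible). Each ratio sets a longer gene over a shorter one, with 11509 exon bases for Slc16a7, 4426 for Slc16a1 and 1682 for Bsg. Both ratios were lowest in Wfs1-KO replicate 2 and WT replicate 1. In these libraries long genes were low beside short ones, by -1.09 and -0.36 on the log2 scale, as described below. The part of this split in the ratios was not tested.

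**Figure D4:**
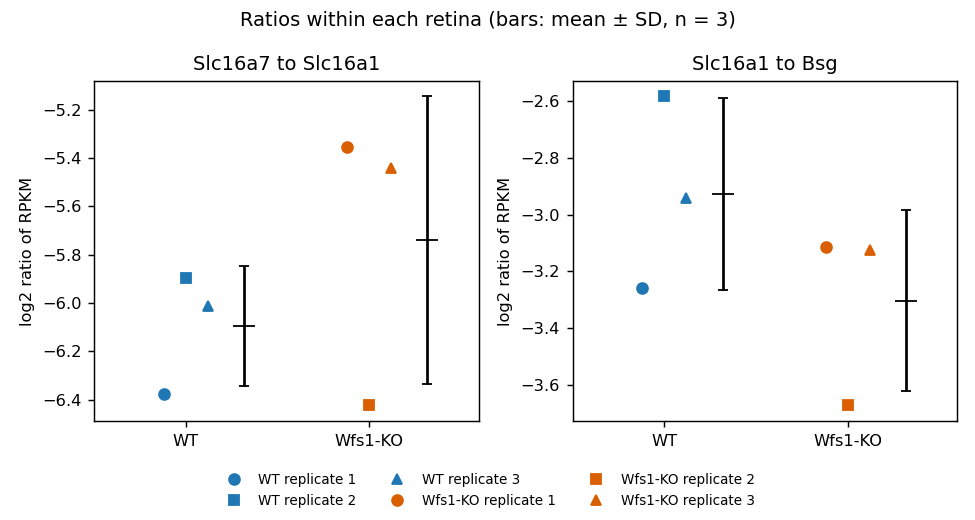
Log2 ratio of RPKM within each retina for Slc16a7 to Slc16a1 (left) and Slc16a1 to Bsg (right), with 1 point per retina and bars for the mean ± SD (n = 3). Wfs1-KO replicate 2 holds the lowest value of both ratios, and the vertical axes differ between panels and do not start at 0.

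The 2 members with the most unlike exon lengths were Slc16a7 with 11509 bases and Bsg with 1682. In every retina but WT replicate 3 they deviated from their 6-retina means in opposite directions. In WT replicate 3 both lay below their means, at -0.01 for Slc16a7 and -0.09 for Bsg on the log2 scale. Long and short genes as a whole were also split between retinas. In each retina, the median deviation from the 6-retina mean, on the log2 scale, was taken over 1152 tested genes with more than 8000 exon bases and over 5612 with fewer than 2000. Long minus short was -0.36, 0.30 and 0.36 in WT and 0.32, -1.09 and 0.35 in Wfs1-KO replicates 1 to 3. Long genes were thus low in the libraries of WT replicate 1 and Wfs1-KO replicate 2. The deviation of Slc16a7 minus that of Bsg was -0.60, 0.55 and 0.08 in WT and 0.56, -1.06 and 0.47 in Wfs1-KO replicates 1 to 3, with the same 2 retinas negative.

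Taken relative to the median of genes whose exon length lay within 20% of its own, Bsg spanned 0.21 on the log2 scale over the 6 retinas, against 0.76 before. Its difference between genotypes was then -0.02 (two-sided exact permutation test, p = 0.9), and it was -0.07 without Wfs1-KO replicate 2. For Slc16a7 the span was 0.44, against 0.96, and the difference 0.15 (exact permutation test, p = 0.4), or 0.20 when Wfs1-KO replicate 2 was left out. Slc16a1 had a difference of -0.19 on this reference, with a span of 0.49 against 0.50, and its groups overlapped (exact permutation test, p = 0.3). Its difference was -0.33 without Wfs1-KO replicate 2. The difference of Slc16a8 was 0.33 (exact permutation test, p = 0.6), with a span of 1.599 against 2.06, and it was -0.19 when that retina was left out. For the other two the span was wider on this reference. Emb had a span of 0.43 against 0.39 and a difference of -0.14 (exact permutation test, p = 0.4), or -0.06 when that retina was left out. Slc16a3 had a span of 1.28 against 0.98 and a difference of 0.02 (exact permutation test, p = 1), or -0.29 when that retina was left out. RNA quality values were not used here, and their part in this split was not tested.

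**Figure D5:**
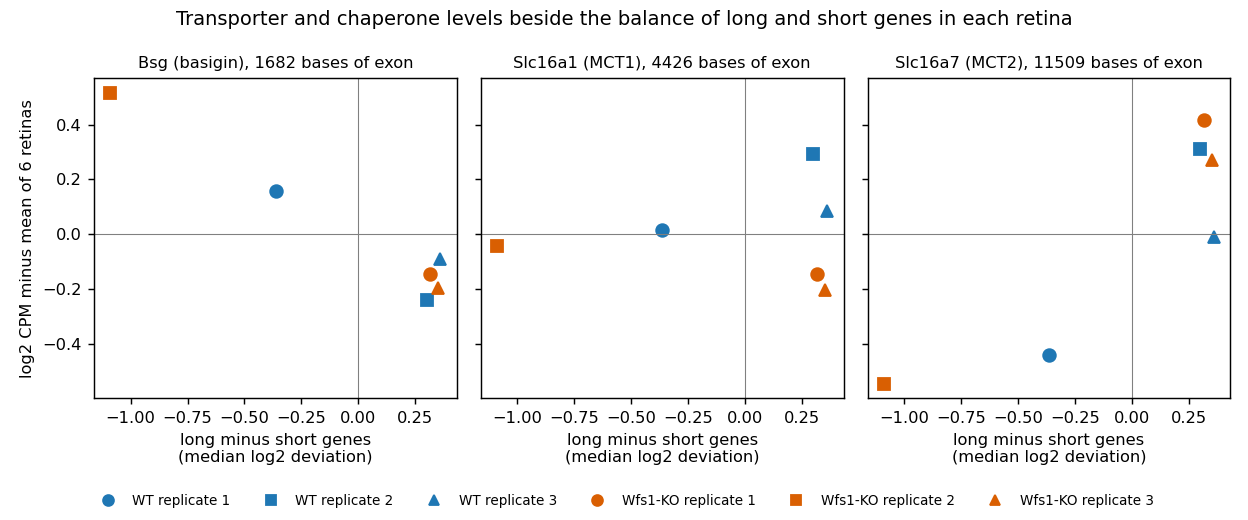
Log2 CPM minus the mean of the 6 retinas (vertical axis) for Bsg, Slc16a1 and Slc16a7 against the median deviation of long minus short genes in the same retina (horizontal axis, log2), with 1 point per retina. WT replicate 1 and Wfs1-KO replicate 2 lie left of 0, where Bsg is high and Slc16a7 is low, while the points of Slc16a1 show no such order.

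The other 10 genes of the SLC16 family, which carry aromatic amino acids, creatine and other substrates or are little studied, were all tested. With edgeR, DESeq2 and limma-voom 0 of the 10 passed the adjusted threshold, against 2, 52 and 2 of all 18547 genes. At an unadjusted p under 0.05 the count was again 0 with each, against 521, 746 and 400 of all genes. The median log2 fold change of the 10 was -0.01, against 0.023 for all genes, and -0.16 without Wfs1-KO replicate 2. In that fit 0 of the 10 passed (0.125% of all genes) and 0 had an unadjusted p under 0.05 (5.19% of all genes). Groups did not overlap for 3 of the 10, 1 higher and 2 lower (22.4% of all genes). Among the smallest p-values from edgeR were those of Slc16a5 (log2 fold change -1.25, SE 0.89, unadjusted p = 0.201), Slc16a9 (-0.37, SE 0.33, unadjusted p = 0.291) and Slc16a14 (-0.68, SE 0.64, unadjusted p = 0.322). The most abundant of the 10 in WT was Slc16a6, with 48.9 ± 5.14 RPKM (SD, n = 3), between Slc16a1 and Slc16a3.

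A second list held 22 genes that work beside the transporters. Among them were lactate dehydrogenases, mitochondrial pyruvate carriers, carbonic anhydrases and sodium-coupled lactate transporters. The list also held the glucose transporter Slc2a1, the basigin relative Nptn and the regulators Hif1a, Epas1, Ppara and Ppargc1a. Of the 22 genes, 19 were tested. With edgeR, DESeq2 and limma-voom 0 of 19 passed the adjusted threshold, against 2, 52 and 2 of all 18547 genes. At an unadjusted p under 0.05 the count was again 0 with each, against 521, 746 and 400 of all genes. The median log2 fold change of the 19 was 0.017 with edgeR. Without Wfs1-KO replicate 2, 0 passed with edgeR (0.125% of all genes), 1 (Car14) had an unadjusted p under 0.05 (5.19% of all genes), 5 had groups that did not overlap, 1 higher and 4 lower (22.4% of all genes), and the median was -0.04. On all 6 retinas 2 of the 19 had groups that did not overlap, Car14 and Ldha, both lower in the mutants, where 8.96% of all genes had such groups.

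Car14, a membrane carbonic anhydrase that faces the outside of the cell, had 74.7, 68.6 and 67.8 CPM in WT and 52.9, 25.6 and 61.5 CPM in Wfs1-KO replicates 1 to 3. Its log2 fold change was -0.59 (SE 0.31, unadjusted p = 0.0983, BH-adjusted p = 0.979 in edgeR), and -0.31 without Wfs1-KO replicate 2, the lowest of the mutants (unadjusted p = 0.0473). Ldha, the subunit of lactate dehydrogenase that favours lactate production, had 1552, 1297 and 1259 CPM in WT and 1185, 1250 and 1117 CPM in Wfs1-KO replicates 1 to 3. The highest mutant value nearly met the lowest WT value. Its log2 fold change was -0.21 (SE 0.17, unadjusted p = 0.244), and -0.26 without Wfs1-KO replicate 2 (unadjusted p = 0.0759 in edgeR). The other named genes of this list were Car4 (log2 fold change -0.84, SE 0.48, unadjusted p = 0.119), a low gene with 6 to 56 counts, and Slc5a8 (0.40, SE 0.29, unadjusted p = 0.205).

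Across the 6 retinas, the genes whose log2 CPM was most like that of a member, among 10333 others with a mean of at least 10 CPM (10334 for Slc16a8), were found by Pearson's r as a description. For Slc16a1 these were Yap1 (r = 0.990), Fabp12 (0.966) and Ube2n (0.958), and for Slc16a3 they were Gltp (0.996), Rfxank (0.972) and Arhgef15 (0.967). For Slc16a7 they were Nsun3 (0.993), Rb1 (0.989) and Fam168a (0.988), and for Emb they were Zfp607b (0.995), D6Wsu163e (0.991) and Prpf4b (0.990). For Slc16a8 they were Penk (0.999), Gpx3 (0.997) and Fam124a (0.997), and for Bsg they were Mypop (0.998), Tulp1 (0.997) and Snhg20 (0.997). With 6 points that share library composition, and so many genes compared, values this high are reached by some gene for each of the 6 members.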

How the data were processed

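RNA from whole retinas was made into TruSeq libraries. Per the labels, the authors trimmed reads with Trimmomatic 0.39, mapped them to mm10 with STAR 2.5.3a and counted them on exons with featureCounts 1.6.4. The study's methods name other versions of the first 2 tools. The deposited table holds raw counts per gene and each gene's exon length. Of its 8 library columns, 2 matched no listed sample and were not used. The other 6 were matched by genotype letter and replicate number, where W was read as Wfs1-KO.

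Genotypes were compared with edgeR 4.0.16 (quasi-likelihood test, TMM, default low-count filter, genotype alone) in R 4.3.3, with Benjamini-Hochberg adjustment over 18547 genes and a threshold of 0.05. RPKM used the table's exon lengths. Ratios were compared by exact permutation over retinas. Alternatives were DESeq2 1.42.0, limma 3.58.1 (voom), other normalisations and filters, a replicate block and leaving out each retina. The like-length reference, principal transcript lengths and list counts without Wfs1-KO replicate 2 were chosen after seeing the data. Gene positions and transcripts are from GENCODE M21, promoters from RefSeq. No promoter entry was matched for Slc16a7 and Bsg.

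Members and lists were chosen with earlier results of these data known. Named genes were the 6 members, Wfs1, up to 4 genes per pathway list with the smallest unadjusted p and any past the threshold, and the 3 genes most like each member. The values of 1 gene that this rule names are not reported here. Markers were summarised by list. The 8 myelin, 8 bipolar and 12 ganglion and amacrine markers summed to 58.7 to 93.3, 1804 to 2339 and 1722 to 1943 CPM per retina.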

Additional observations from a re-analysis of the deposited data

How the results depend on the processing

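Slc16a1 and Emb kept a negative difference under all 14 alternatives, -0.32 to -0.18 and -0.21 to -0.07 on the log2 scale, and none of the 6 genes passed the threshold in any of them. The sign of Slc16a3 turned positive under upper-quartile normalisation (0.0058), a minimum of 10 counts in every retina (0.0025) and the like-length reference (0.0165). The like-length reference also turned Bsg to -0.0191. Leaving out 1 retina gave -0.24 to 0.21 for Slc16a3, -0.066 to 0.36 for Slc16a7, -0.25 to 1.08 for Slc16a8 and -0.13 to 0.27 for Bsg. The cause was not tested. The 2 ratios kept their direction under all 9 alternatives, with leave-one-out ranges of 0.163 to 0.698 and -0.542 to -0.192. Same-numbered pairs and principal transcript lengths leave each mean difference unchanged by construction, so these alternatives could not turn it. The like-length reference was not applied to the ratios.

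Over all genes, 2 passed the threshold with edgeR, 52 with DESeq2, 9 with no filter, 1 with a replicate block and 0 to 24 when 1 retina was left out, with 24 without Wfs1-KO replicate 2 and 0 without any WT retina. The common dispersion was 0.128, and 0.0322 without Wfs1-KO replicate 2. Deviations of same-numbered retinas from their group means correlated at -0.23, -0.11 and 0.08. The labels do not say whether replicate numbers pair the retinas, and these correlations cannot settle it. With the replicate block the log2 fold changes were -0.26 for Slc16a1, -0.06 for Slc16a3, 0.10 for Slc16a7, 0.41 for Slc16a8, 0.11 for Bsg and -0.14 for Emb, none past the threshold, and both ratios had p = 0.5 (exact permutation test within pairs). With so few pairs, the test of the ratios cannot reach a p under 0.05, whatever the values.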
